A study of Mus musculus with 6 samples.

Results

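Mitosis and chromosome segregation genes were followed in bulk RNA sequencing of the mouse optic nerve. The set holds 57 genes of the 25755 in the deposited table and was taken by gene symbol. The list was chosen with results of this same comparison known, so the change of its genes between the groups is given as a description, without a p-value. All 6 mice were NF1flox/flox;hGFAP-Cre, in which Cre driven by a human GFAP promoter inactivates Nf1, a negative regulator of RAS signalling, in neuroglial progenitors. Of these, 3 mice (mice 1, 2 and 3) had sham surgery and 3 (mice 4, 5 and 6) had bilateral optic nerve crush (ON-CR), a mechanical injury of the nerve, at 6 weeks of age. Nerves were taken at 12 weeks by the study's methods, given as 3 months in the sample labels. Sham mice therefore carried the Nf1 deletion too, and mice with intact Nf1 were not analysed here. The comparison asks what injury changes in the RNA of whole optic nerves whose glial progenitors lost Nf1.

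Entry into mitosis is driven by CDK1 bound to B-type cyclins, with Aurora and Polo-like kinases. Condensins and topoisomerase compact and untangle the chromosomes, kinetochores attach them to the spindle, the spindle checkpoint delays separation until every chromosome is attached, and the anaphase-promoting complex (APC/C) then triggers separation and exit. Most of these genes are transcribed in late S, G2 and M phase and are repressed in resting cells, and in the adult optic nerve most glia are not dividing, with oligodendrocyte precursors and microglia among the resident cells that keep the ability to divide.

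Values are median-normalized read estimates, in which 1 read was worth 0.885 to 1.06, and the libraries held 17414035 to 23620997 estimated reads. The libraries were named as separate mice. Nf1, the targeted gene, measured 364, 447 and 343 in sham mice 1, 2 and 3, against 416, 438 and 380.0 in ON-CR mice 4, 5 and 6, which checks no label because every mouse carried the deletion and the nerve holds cells without it. The summed level of 11 mature oligodendrocyte markers was 631453 to 748424 after ON-CR against 1294390 to 1849200 after sham, so the labelled tissue showed its markers in both groups. In a bulk sample, fewer cells of a type and less RNA per cell cannot be told apart, and the same holds for more dividing cells and more mitotic RNA per cell.

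Mitosis genes were higher after ON-CR as a group. The fitted difference in log2(value + 1), called the log2 fold change below, was above 0 for 54 of the 57 genes, with a median of 1.08, whereas 52.8% of all genes were above 0, with a median of 0.03. In 37 genes every ON-CR mouse was above every sham mouse, a pattern that 10.5% of all genes showed. In 1 gene, Anln, every ON-CR mouse was below every sham mouse, a pattern of 11.0% of all genes. The groups overlapped in the remaining 19. Called means an adjusted p at or under 0.05 in limma over all genes. By that rule 13 of the 57 were higher, where 0.971% of all genes were called higher, and 1 was lower, where 1.13% of all genes were called lower. Together 14 of 57 (24.6%) were called, against 2.10% of all genes, and because this contrast was known when the list was drawn up, nothing is read from that share. With every library scaled to the same total, 68.3% of the calls over all genes were higher in place of 46.3%, the median of all genes was 0.15, and the 14 calls of the set, against 2.39% of all genes, held Melk in place of Anln.

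**Figure D1:**
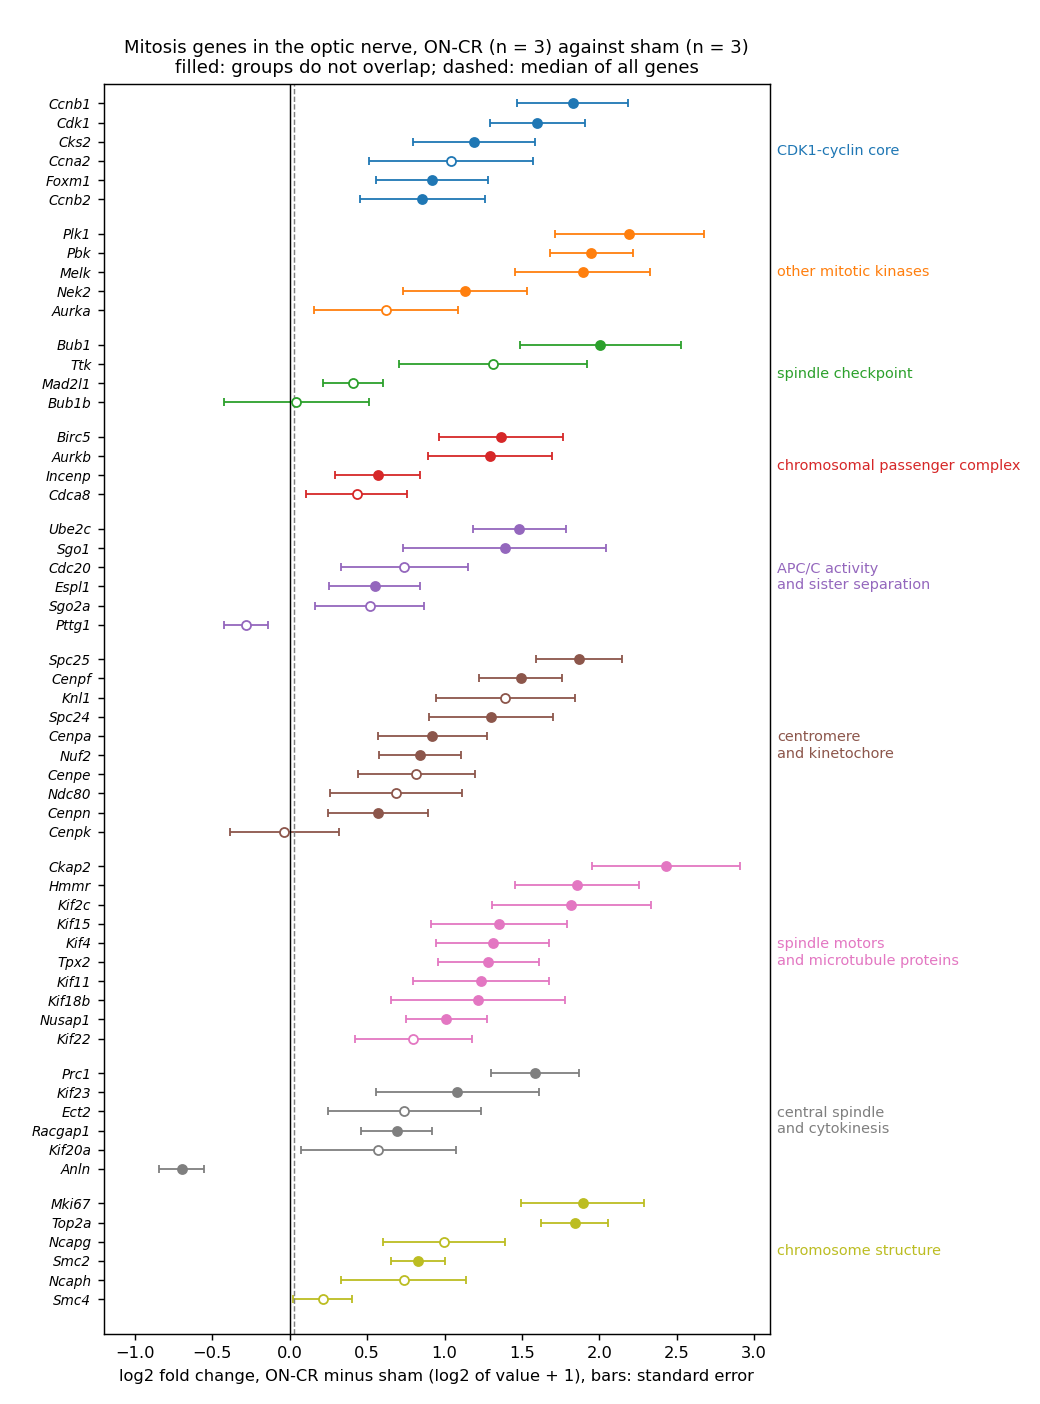
Log2 fold change (x axis, ON-CR minus sham on log2(value + 1), n = 3 each) of each of the 57 mitosis genes, grouped by role, with bars for the standard error and filled points where the groups do not overlap. The genes spread from -0.70 for Anln to 2.43 for Ckap2, and only Anln, Pttg1 and Cenpk lie below 0.

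The change was not of one size in the 3 ON-CR mice. Relative to each gene's sham mean, the median gene lay at 0.94 log2 units in ON-CR mouse 4, 0.67 in mouse 5 and 1.62 in mouse 6, and at -0.10, -0.03 and 0.12 in sham mice 1, 2 and 3. Mouse 6 was the highest of the ON-CR mice for 52 of the 57 genes, and mouse 5 was the lowest for 39. All the same, 51, 50 and 55 of the 57 genes lay above the sham mean in mice 4, 5 and 6. Among the sham mice, mouse 3 was the highest for 28 genes. The order of the ON-CR mice therefore recurred across the set, and mouse 6 set the upper end of most group means.

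**Figure D2:**
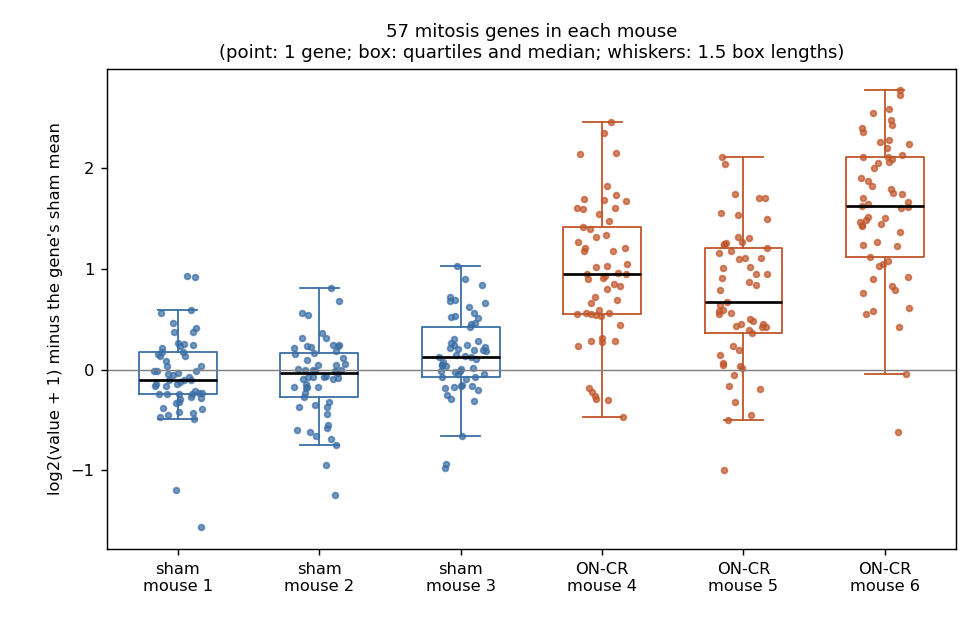
Each of the 57 mitosis genes in each mouse, as log2(value + 1) minus the gene's mean over the 3 sham mice (y axis), with boxes for quartiles and median. The medians of the ON-CR mice are 0.94, 0.67 and 1.62, and mouse 6 lies above mice 4 and 5.

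Leaving out single mice changed the calls far more than the direction. Without ON-CR mouse 6, 52 of the 57 genes were still above 0, with a median of 0.83, and 1, Top2a, was called, where 0.260% of all genes were called. Without ON-CR mouse 5, 18 were called against 3.32% of all genes, and without mouse 4, 6 were called against 1.79%. Without sham mouse 1, 2 or 3, the called genes numbered 3, 3 and 4, against 0.745%, 0.478% and 1.00% of all genes. Top2a was called in each of these 6 fits, and Pbk in all but the one without mouse 6.

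Levels per kilobase of annotated exon differed widely within the set. The median gene had a sham mean of 7.80 and an ON-CR mean of 15.5 per kilobase. Pttg1 stood highest, at 752 in sham and 621 in ON-CR, followed by Anln at 261 in sham and 162 in ON-CR, Smc4 at 96.7 in sham and 114 in ON-CR and Smc2 at 59.6 in sham and 107 in ON-CR. The lowest was Kif18b at 0.72 in sham and 2.01 in ON-CR. These levels show that the 4 genes at the top were abundant in sham nerves, where 51 of the 57 genes were under 100 in every sham library on the scale not divided by length. Pttg1 and Anln, the only members above 1000 in every library, both had log2 fold changes below 0, and the groups overlapped for Pttg1 but not for Anln. The sum over all 57 genes was 6415, 6844 and 6597 in the sham mice and 8074, 6514 and 10603 in the ON-CR mice, so the summed level of the groups overlapped. Without Anln, Pttg1, Smc2 and Smc4, left out after their levels were seen, the sum was 1861, 1801 and 2104 in the sham mice and 3975, 3359 and 6183 in the ON-CR mice, and the groups did not overlap.

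Promoter sequence was not itself used to choose the genes, but it is tied to the choice, since they were chosen as mitosis genes. Genes of G2 and M phase often carry a cell cycle homology region (CHR, TTTGAA), which the DREAM and MuvB complexes bind, and CCAAT boxes (CCAAT), which NF-Y binds, whereas genes of S phase more often carry E2F sites (here TTTGGCGC and TTTCCCGC). Each motif was searched on both strands of RefSeq promoter windows of GRCm38.p6, from 250 bases before to 50 bases after an annotated start, and no motif contains another. A window was found for 48 of the 57 genes, several of them with more than 1, giving 53 windows. No window was found for Aurkb, Ccna2, Foxm1, Incenp, Kif20a, Pbk, Smc4, Spc24 and Tpx2. TTTGAA was found in 33 of the 48 genes (68.8%), against 20.2% of 27025 genes with a window. CCAAT was found in 36 (75.0%), against 41.1%, and both in 28 (58.3%), against 7.97%. An E2F site was found in 2 of the 48 genes (4.17%), Kif15 and Ncapg, against 1.80% of all, and 7 genes held neither TTTGAA nor CCAAT, 14.6% against 47.7% of all. Among 69 of the other mitosis genes with a window, TTTGAA was found in 44.9%, CCAAT in 62.3%, both in 30.4%, neither in 23.2% and an E2F site in 9 genes. Because the 57 genes were chosen as mitosis genes with this comparison known, their shares partly follow from that choice, and nothing is read from them. These are matches of letters within the windows, given without a test, and binding was not measured.

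The windows below are shown because they belong to the 4 genes with both motifs whose mean values were highest, and the last because Pttg1 had the highest mean value of the genes with neither. They are RefSeq windows of GRCm38.p6, written 5′ to 3′ on the strand of the gene, and the capitals mark the CHR, which reads TTCAAA where it lies on the other strand, and the CCAAT box, which then reads ATTGG.
Smc2 (chr4:52438971-52439270, plus strand): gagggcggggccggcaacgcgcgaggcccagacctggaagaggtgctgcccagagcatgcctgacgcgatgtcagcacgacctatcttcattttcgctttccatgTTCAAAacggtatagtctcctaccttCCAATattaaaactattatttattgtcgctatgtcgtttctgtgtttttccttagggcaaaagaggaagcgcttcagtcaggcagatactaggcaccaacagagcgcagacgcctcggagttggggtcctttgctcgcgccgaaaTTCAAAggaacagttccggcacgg
Top2a (chr11:99024140-99024439, minus strand): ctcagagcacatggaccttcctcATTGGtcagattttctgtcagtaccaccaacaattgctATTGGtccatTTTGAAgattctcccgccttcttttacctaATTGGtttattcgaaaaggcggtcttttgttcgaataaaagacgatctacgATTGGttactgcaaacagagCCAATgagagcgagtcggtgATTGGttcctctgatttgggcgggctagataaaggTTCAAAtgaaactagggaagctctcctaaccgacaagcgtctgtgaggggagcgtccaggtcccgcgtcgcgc
Cenpf (chr1:189688037-189688336, minus strand): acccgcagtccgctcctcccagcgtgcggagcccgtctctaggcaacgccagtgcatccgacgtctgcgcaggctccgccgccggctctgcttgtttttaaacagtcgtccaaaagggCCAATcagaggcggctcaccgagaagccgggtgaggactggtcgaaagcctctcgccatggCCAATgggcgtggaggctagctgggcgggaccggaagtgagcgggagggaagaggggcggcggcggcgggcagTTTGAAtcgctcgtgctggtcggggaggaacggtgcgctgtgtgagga
Prc1 (chr7:80294201-80294500, plus strand): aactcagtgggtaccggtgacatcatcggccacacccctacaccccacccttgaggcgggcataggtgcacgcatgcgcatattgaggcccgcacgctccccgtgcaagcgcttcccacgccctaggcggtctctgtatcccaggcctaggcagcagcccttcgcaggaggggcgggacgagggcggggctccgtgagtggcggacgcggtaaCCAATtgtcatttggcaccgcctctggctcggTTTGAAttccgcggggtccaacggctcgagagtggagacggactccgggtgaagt
Pttg1 (chr11:43425932-43426231, minus strand): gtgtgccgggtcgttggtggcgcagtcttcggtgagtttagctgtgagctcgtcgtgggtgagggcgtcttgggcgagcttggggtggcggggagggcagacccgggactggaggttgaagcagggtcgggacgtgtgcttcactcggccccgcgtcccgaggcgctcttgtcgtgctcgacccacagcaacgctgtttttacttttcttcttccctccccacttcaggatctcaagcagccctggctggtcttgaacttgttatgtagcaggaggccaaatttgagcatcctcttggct
Counted from the first transcribed base as 1, Prc1 had CCAAT at -37 and TTTGAA at -5, and Cenpf had CCAAT at -132 and -71 and TTTGAA at 3. Top2a held 6 CCAAT boxes, at -227, -189, -149, -98, -78 and -58, with TTTGAA letters at -179 and -23. Smc2 held TTTGAA letters at -145 and 27 around 1 CCAAT box at -119. Pttg1 had no match in its window, and Anln, the other gene above 1000 in every library, had TTTGAA without CCAAT.

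The core that drives entry into mitosis was higher in ON-CR nerves for each of its 6 genes, with a median log2 fold change of 1.12, and in 5 of the 6 every ON-CR mouse was above every sham mouse. That pattern held for 10.5% of all genes, and because the genes were chosen with this comparison known, the counts for this and the following role groups are descriptions. Cdk1 (chr10:69335146-69352938, minus strand), the kinase itself, measured 35.0, 30.1 and 42.3 in sham mice 1, 2 and 3, against 109.7, 77.6 and 154 in ON-CR mice 4, 5 and 6. The Cdk1 group means were 35.8 ± 6.12 after sham and 114 ± 38.2 after ON-CR (SD over 3 mice). The log2 fold change was 1.60 ± 0.31 (SE). Ccnb1, the cyclin B1 partner that carries CDK1 into the nucleus, measured 36.1, 15.1 and 31.7 after sham and 84.7, 86.5 and 115 after ON-CR, a log2 fold change of 1.83 ± 0.36 (SE). The sham and ON-CR mice were well apart for both genes. Ccnb2, cyclin B2, measured 28.7, 23.0 and 21.6 after sham and 35.9, 31.4 and 78.9 after ON-CR, with a log2 fold change of 0.86 ± 0.40 (SE), and in it mouse 6 stood apart while mice 4 and 5 were only slightly above the highest sham mouse. Without mouse 6 the log2 fold change of Ccnb2 was 0.45. Ccna2, cyclin A2, which acts in S phase as well as in G2, was the gene of this core whose groups overlapped, with 16.2, 11.3 and 36.2 after sham and 23.1, 37.5 and 73.4 after ON-CR. Foxm1, a transcription factor that activates genes of G2 and M phase and is itself one of the 57, measured 16.0, 19.6 and 24.7 after sham and 39.0, 29.5 and 48.9 after ON-CR, and its groups did not overlap.

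Of the 5 other mitotic kinases, 4 had every ON-CR mouse above every sham mouse (10.5% of all genes), and their median log2 fold change of 1.89 was the highest of the 9 role groups. Pbk, a kinase of mitotic cells, measured 36.1, 36.3 and 36.6 in sham mice 1, 2 and 3, against 119, 124 and 199 in ON-CR mice 4, 5 and 6. The sham mice were within 1 unit of each other, and the log2 fold change was 1.95 ± 0.27 (SE). Plk1, the Polo-like kinase needed for centrosome maturation and spindle assembly, measured 11.7, 18.6 and 4.70 after sham and 48.9, 45.1 and 58.0 after ON-CR. It had the highest log2 fold change of the kinases, 2.19 ± 0.48 (SE), from sham values that ranged from 4.70 to 18.6. Aurka, the Aurora kinase of the spindle poles, measured 23.3, 23.0 and 47.9 after sham and 25.9, 45.1 and 83.1 after ON-CR, with a log2 fold change of 0.62 ± 0.47 (SE). Its sham mouse 3 was above both ON-CR mice 4 and 5, so Aurka overlapped between groups. The log2 fold change of Aurka ranged from 0.20 without ON-CR mouse 6 to 1.03 without ON-CR mouse 4. Melk, named after its values were seen, measured 7.43, 6.20 and 12.2 after sham and 39.9, 25.2 and 37.4 after ON-CR, with no overlap.

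The 4 spindle checkpoint genes were all above 0, with a median log2 fold change of 0.86, and in 1 of them, Bub1, every ON-CR mouse was above every sham mouse (10.5% of all genes). Bub1, the kinase that recruits checkpoint proteins to kinetochores, measured 4.24, 3.54 and 7.51 after sham and 28.9, 13.6 and 29.1 after ON-CR, a log2 fold change of 2.01 ± 0.52 (SE) from a sham level of a few reads. Bub1b, which encodes the checkpoint protein BUBR1, measured 73.2, 23.9 and 31.9 after sham and 30.9, 30.4 and 65.4 after ON-CR. Its highest value was in sham mouse 1, and its log2 fold change was 0.04 ± 0.47 (SE), which ranged from -0.31 without ON-CR mouse 6 to 0.50 without sham mouse 1. Mad2l1, which encodes the MAD2 protein that holds back CDC20, had the highest level per kilobase of the checkpoint genes and measured 135, 162 and 119 after sham and 162, 185 and 206 after ON-CR. Sham mouse 2 and ON-CR mouse 4 were almost level, and its log2 fold change was 0.41 ± 0.19 (SE).

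The chromosomal passenger complex, which corrects faulty attachments and guides cytokinesis, consists of the kinase Aurkb and its partners Incenp, Birc5 and Cdca8. All 4 genes were above 0, with a median log2 fold change of 0.93, and 3 of the 4 had every ON-CR mouse above every sham mouse (10.5% of all genes). The kinase gene Aurkb measured 32.9, 14.2 and 22.5 after sham and 41.9, 50.3 and 80.0 after ON-CR, with no overlap. Birc5, which encodes survivin, measured 22.3, 30.1 and 27.2 after sham and 50.9, 50.3 and 129.8 after ON-CR, with a log2 fold change of 1.36 ± 0.40 (SE). Mice 4 and 5 were alike for Birc5, mouse 6 was far above both, and without mouse 6 the log2 fold change was 0.92. Incenp, the scaffold of the complex, measured 54.1, 46.0 and 46.1 after sham and 78.8, 55.6 and 87.2 after ON-CR, a log2 fold change of 0.57 ± 0.27 (SE). Its lowest ON-CR mouse exceeded its highest sham mouse by a narrow margin. Cdca8, which encodes borealin, measured 46.7, 73.5 and 59.2 after sham and 85.7, 52.4 and 112 after ON-CR and had a log2 fold change of 0.43 ± 0.32 (SE), and ON-CR mouse 5 lay below sham mice 2 and 3.

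Genes of APC/C activity and sister separation included both abundant and rare transcripts. Ube2c, the ubiquitin-conjugating enzyme that works with the APC/C, measured 56.2, 28.5 and 49.8 in sham mice 1, 2 and 3, against 133, 100.6 and 137 in ON-CR mice 4, 5 and 6. Its log2 fold change was 1.48 ± 0.30 (SE), and the groups did not overlap. Pttg1 (chr11:43420250-43426251, minus strand), which encodes securin, the inhibitor of separase, measured 1639.5, 1548 and 1324 after sham and 1219, 1055 and 1452 after ON-CR. Its ON-CR mouse 6 exceeded sham mouse 3, so the groups overlapped, and the log2 fold change was -0.28 ± 0.14 (SE). Over the alternatives the log2 fold change of Pttg1 ranged from -0.40 without ON-CR mouse 6 to -0.15 with equal library totals. Espl1, which encodes separase itself, measured 30.8, 28.3 and 31.0 after sham and 44.9, 48.2 and 40.5 after ON-CR and did not overlap between groups. Securin and separase RNA thus lay on opposite sides of 0, at -0.28 and 0.55. The group's median was 0.65, with every ON-CR mouse above every sham mouse in 3 of 6 genes (10.5% of all genes).

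Centromere and kinetochore genes had a median log2 fold change of 0.88, and 6 of the 10 had every ON-CR mouse above every sham mouse (10.5% of all genes). Cenpf, a large kinetochore protein of G2 and M phase, measured 74.3, 79.7 and 85.5 in sham mice 1, 2 and 3, against 223, 154 and 334 in ON-CR mice 4, 5 and 6. Its log2 fold change was 1.49 ± 0.27 (SE), and the lowest ON-CR mouse was well above the highest sham mouse. Spc25, a subunit of the NDC80 complex that holds microtubules, measured 49.9, 47.8 and 47.9 after sham and 149, 143 and 274 after ON-CR. Its sham mice lay between 47.8 and 49.9, and its log2 fold change of 1.87 ± 0.28 (SE) was the highest of the group. The other subunits of the NDC80 complex differed in size, with Spc24 at 1.30 ± 0.40 (SE), Nuf2 at 0.84 ± 0.26 (SE) and Ndc80 at 0.69 ± 0.43 (SE). Of these, Ndc80 overlapped between groups. Cenpk, a protein of the constitutive centromere network, measured 34.8, 42.8 and 47.4 after sham and 34.2, 30.1 and 63.6 after ON-CR, with a log2 fold change of -0.03 ± 0.35 (SE), and ON-CR mice 4 and 5 were below every sham mouse while mouse 6 was above them all. The sign of Cenpk turned in 5 of the alternatives, at 0.09 with equal library totals, 0.01 with voom, 0.06 without sham mouse 3, and at 0.08 and 0.17 when ON-CR mouse 4 or 5 was left out.

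Among spindle motors and microtubule proteins 9 of 10 genes had every ON-CR mouse above every sham mouse (10.5% of all genes), with none below 0 and a median log2 fold change of 1.30. Ckap2, which binds spindle microtubules, measured 34.0, 8.85 and 35.7 in sham mice 1, 2 and 3, against 127, 99.6 and 153 in ON-CR mice 4, 5 and 6. Its log2 fold change of 2.43 ± 0.48 (SE) was the highest of all 57 genes and rested in part on sham mouse 2, since without that mouse it was 1.81. Tpx2, which activates Aurora A on the spindle, measured 73.2, 51.4 and 44.1 after sham and 149, 86.0 and 193 after ON-CR, a log2 fold change of 1.28 ± 0.33 (SE). Nusap1, a microtubule-bundling protein, measured 71.1, 63.7 and 81.7 after sham and 114, 132 and 207 after ON-CR, a log2 fold change of 1.01 ± 0.26 (SE). Both genes were higher in each ON-CR mouse than in any sham mouse. Kif22, a chromosome-arm kinesin, measured 43.5, 32.8 and 36.6 after sham and 70.8, 37.7 and 106 after ON-CR and had the smallest log2 fold change of the 10, 0.80 ± 0.38 (SE), with ON-CR mouse 5 below sham mouse 1. Kif18b, a kinesin that shortens astral microtubules, was at the floor of 3 reads in every sham library, with 3, 3 and 2 reads against 7 in each ON-CR library. The pooled 21 reads against 8 gave a depth-adjusted ratio of 3.08 with a 95% interval of 1.31 to 8.04, which covers counting error only.

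Cytokinesis genes included Anln, the member with the lowest log2 fold change. Anln (chr9:22332012-22389188, minus strand) encodes anillin, a scaffold of the contractile ring that is also expressed by mature oligodendrocytes, where it supports septin filaments in myelin. It measured 2193, 2554 and 2341 in sham mice 1, 2 and 3, against 1707, 1178 and 1531 in ON-CR mice 4, 5 and 6, with a log2 fold change of -0.70 ± 0.15 (SE). The Anln group means were 2363 ± 181 after sham and 1472 ± 269 after ON-CR (SD over 3 mice). Every ON-CR mouse was below every sham mouse. The 11 mature oligodendrocyte markers were likewise lower, with each ON-CR mouse below each sham mouse for 10 of the 11 (11.0% of all genes) and 8 called lower (1.13% of all genes). Their part in the Anln value was not tested. Prc1, which bundles the microtubules of the central spindle, measured 54.9, 64.4 and 78.5 after sham and 173, 148 and 302 after ON-CR, a log2 fold change of 1.59 ± 0.29 (SE). Racgap1, of the centralspindlin complex, measured 81.7, 80.6 and 93.8 after sham and 116, 126 and 181 after ON-CR and did not overlap between groups. Kif20a, a kinesin of the central spindle, measured 33.6, 30.6 and 40.1 after sham and 29.5, 36.1 and 129 after ON-CR, so that mouse 6 alone stood above the sham mice.

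Among genes of chromosome structure, Mki67 (chr7:135689784-135716361, minus strand), which encodes the Ki-67 protein that coats mitotic chromosomes and is the usual stain for cycling cells, measured 43.5, 30.1 and 77.9 in sham mice 1, 2 and 3, against 168, 114 and 287 in ON-CR mice 4, 5 and 6. The Mki67 group means were 50.5 ± 24.7 after sham and 189 ± 88.2 after ON-CR (SD over 3 mice). The log2 fold change was 1.89 ± 0.40 (SE), and without mouse 6 it was 1.54. Top2a, the topoisomerase that untangles sister chromatids, is named here after its values were seen and measured 86.0, 109 and 113 after sham and 341, 300.03 and 484 after ON-CR, a log2 fold change of 1.84 ± 0.22 (SE). Both genes had each ON-CR mouse above each sham mouse. The shared condensin subunits differed, with Smc2 at 276, 363 and 341 after sham and 564, 484 and 706 after ON-CR and a log2 fold change of 0.83 ± 0.18 (SE), and Smc4 at 446, 579 and 486 after sham and 608, 438 and 732 after ON-CR, with 0.21 ± 0.19 (SE). Smc2 did not overlap between groups, whereas ON-CR mouse 5 of Smc4 lay below every sham mouse. The condensin I subunits Ncapg and Ncaph had log2 fold changes of 1.00 ± 0.39 (SE) and 0.74 ± 0.40 (SE), and both overlapped.

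**Figure D3:**
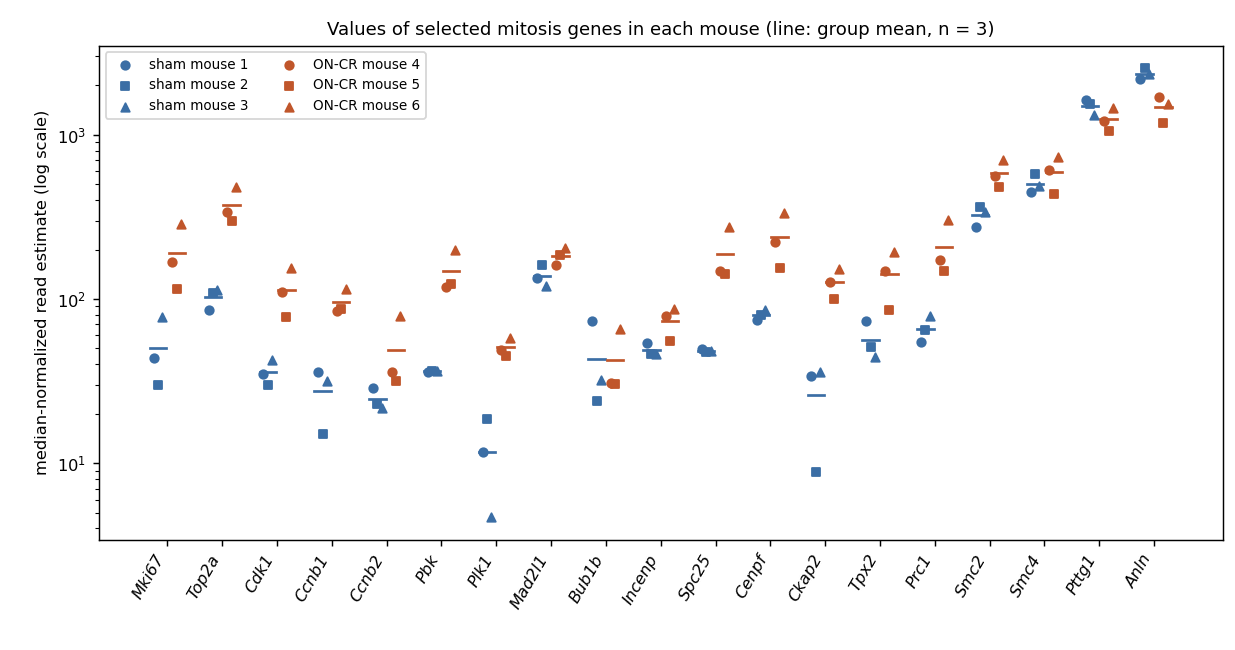
Median-normalized read estimates (y axis, log scale, not divided by length) of 19 mitosis genes in each mouse, with a line at each group mean (n = 3). Mki67, Top2a, Cdk1, Pbk and Spc25 are separated between the groups, Mad2l1, Bub1b and Smc4 overlap, and Anln is lower in every ON-CR mouse.

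Related lists outside the 57 genes had medians closer to 0. The 57 were chosen with this comparison known, and the other mitosis genes are ones outside that choice. The gap in medians may therefore come in part from selection, and nothing is read from it. Of 85 other mitosis genes in the table, 68 were above 0, with a median log2 fold change of 0.26. In limma 4 of the 85 (4.71%) were called, against 2.10% of all genes, and 27 had every ON-CR mouse above every sham mouse (31.8%, against 10.5%). Aspm, a spindle pole protein, rose, with 13.8, 20.4 and 25.4 after sham and 65.8, 61.9 and 103 after ON-CR (log2 fold change 1.90 ± 0.35 SE, adjusted p = 0.0256 by limma). Knstrn, a kinetochore protein, rose by 1.72 ± 0.37 (SE, limma adjusted p = 0.0432), and Pimreg, a mitotic regulator, by 1.52 ± 0.33 (SE, limma adjusted p = 0.0492). Stmn1, which encodes the microtubule-destabilizing protein stathmin, fell, with 16859, 15984 and 13314 after sham and 9201, 8754 and 9698 after ON-CR (log2 fold change -0.73 ± 0.12 SE, limma adjusted p = 0.015). With single mice left out, the limma adjusted p of Aspm, Knstrn and Pimreg reached 0.182, 0.245 and 0.228, and that of Stmn1 0.116. Of these 6 fits, Aspm and Pimreg were called only in the one without ON-CR mouse 5, Knstrn in those without that mouse or sham mouse 2, and Stmn1 was lost without sham mouse 1, sham mouse 2 or ON-CR mouse 6. Pimreg was also lost with a pseudocount of 2 (limma adjusted p = 0.0511), where 3 of the 85 were called.

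Among 48 genes of DNA replication, which precedes mitosis, 35 were above 0 (72.9%, against 52.8% of all genes), with a median of 0.22. Of the 48, 2 (4.17%, against 2.10% of all genes) were called, and 9 had every ON-CR mouse above every sham mouse (18.8%, against 10.5%). Rrm2, a subunit of ribonucleotide reductase, measured 54.1, 60.2 and 95.7 after sham and 193, 171 and 446 after ON-CR and rose by 1.84 ± 0.36 (SE) on the log2 scale (limma adjusted p = 0.0312). Clspn, which encodes the replication checkpoint protein claspin, measured 6.37, 14.2 and 8.45 after sham and 36.9, 49.3 and 82.0 after ON-CR and rose by 2.41 ± 0.45 (SE, limma adjusted p = 0.0256). Both calls were lost without ON-CR mouse 6 and without any one sham mouse, where the adjusted p reached 0.161 and 0.182 in limma. The per-mouse medians of this list were 0.10, 0.06 and 0.51 in mice 4, 5 and 6, so mouse 6 was again the highest. Among 13 cohesin genes, which hold sister chromatids together, 8 were above 0 (61.5%, against 52.8% of all genes), with a median of 0.11. The 1 called (7.69%, against 2.10% of all genes) was Esco2, the acetyltransferase that sets cohesion in S phase. Esco2 measured 12.7, 10.6 and 15.0 after sham and 45.9, 37.7 and 67.5 after ON-CR (log2 fold change 1.87 ± 0.38 SE, limma adjusted p = 0.0348). Of the 6 fits with a mouse left out, it was called only in the one without ON-CR mouse 5, and the limma adjusted p reached 0.205 in the others.

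The 17 subunits and partners of the APC/C were mostly below 0, 13 of them, with a median of -0.19, and 8 with every ON-CR mouse below every sham mouse (47.1%, against 11.0% of all genes). In 2 of the 17, Cdc27 and Fbxo5, every ON-CR mouse was above every sham mouse (11.8%, against 10.5% of all genes), with log2 fold changes of 0.23 and 1.07. Ube2s, the enzyme that extends ubiquitin chains on APC/C substrates, fell, with 312, 339.5 and 292 after sham and 119, 105 and 125 after ON-CR (log2 fold change -1.43 ± 0.17 SE, limma adjusted p = 0.003), and this call held in every alternative tried, with adjusted p up to 0.0358. Ube2c, which starts those chains, was higher in the same nerves, as given above.

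Upstream of mitosis, Ccnd1, cyclin D1, which promotes passage through G1, measured 1357, 1588 and 1254 in sham mice 1, 2 and 3, against 3121, 3843 and 3589 in ON-CR mice 4, 5 and 6. It rose by 1.33 ± 0.13 (SE) on the log2 scale (limma adjusted p = 0.00129), a call that held in every alternative tried, with adjusted p up to 0.0341. The list of 7 G1 genes held Ccnd1, Ccnd2, Ccnd3, Cdk2, Cdk4, Cdk6 and Myc, which is neither a cyclin nor a kinase, and no E cyclin. In that list 6 genes were above 0 (85.7%, against 52.8% of all genes), with a median of 0.49. Of 8 CDK inhibitors, 4 were above 0 (50%, against 52.8% of all genes). Of the 8, Cdkn1c, which encodes p57, fell, with 779, 661 and 626 after sham and 433, 419 and 446 after ON-CR (log2 fold change -0.66 ± 0.13 SE, limma adjusted p = 0.0336). That call was lost with equal library totals and when any mouse but ON-CR mouse 5 was left out, with limma adjusted p up to 0.144. Of the 20 DREAM, MuvB, RB and E2F regulators 0 were called in limma (2.10% of all genes) or with voom (2.81%), and 4 had an unadjusted p under 0.05 (15.6% of all genes). In 3 of the 20, Lin9, Lin54 and Mybl1, every ON-CR mouse was above every sham mouse, against 10.5% of all genes. In 4, E2f4, Rbbp4, Rbl2 and Tfdp2, every ON-CR mouse was below every sham mouse, against 11.0% of all genes. The most abundant of them, Rbbp4, measured 5157, 5324 and 4780.2 after sham and 4699, 4416 and 4764 after ON-CR (adjusted p = 0.572 by limma), and Lin52, a MuvB subunit, measured 1088, 857 and 691 after sham and 610.2, 872 and 649 after ON-CR (limma adjusted p = 0.495). Chosen after their values were seen, Mybl1, a transcription factor, measured 23.3, 28.3 and 38.5 after sham and 59.8, 73.4 and 80.0 after ON-CR (limma adjusted p = 0.075) and Lin9, a MuvB subunit, measured 47.8, 46.9 and 47.9 after sham and 89.7, 74.4 and 77.9 after ON-CR (limma adjusted p = 0.164), and neither overlapped between groups.

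**Figure D4:**
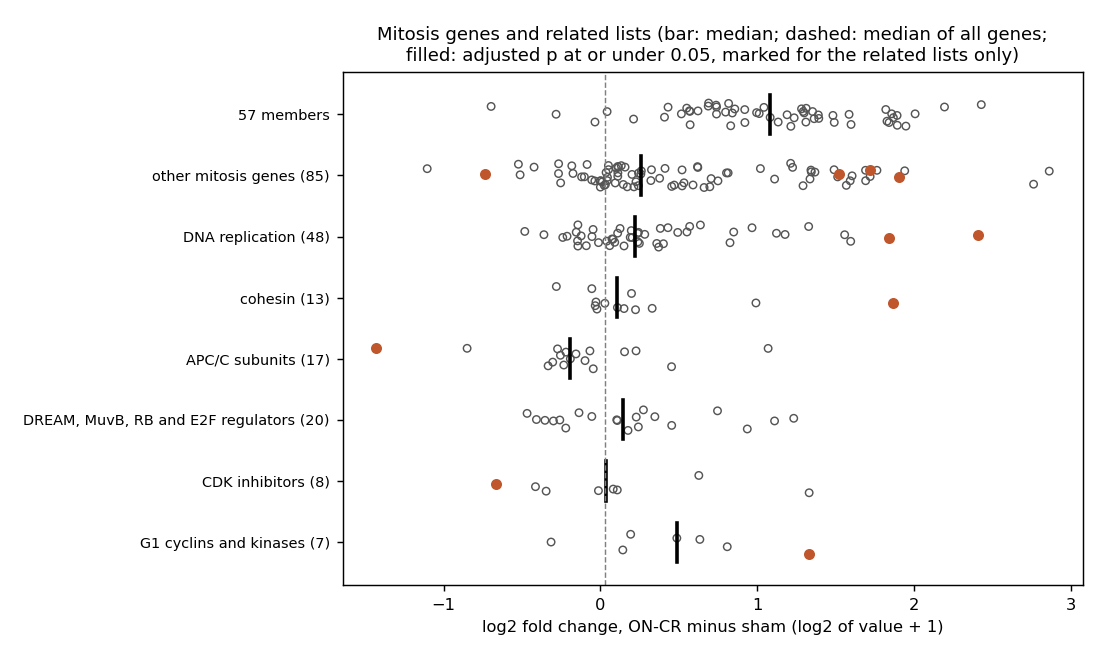
Log2 fold changes (x axis, ON-CR minus sham on log2(value + 1)) of the 57 mitosis genes and of 7 related lists, with a bar at each median and filled points for list genes called in limma. The median is 1.08 for the 57 genes, 0.26 for other mitosis genes, 0.22 for DNA replication and -0.19 for APC/C subunits and partners. The 57 genes were chosen with this comparison known, so nothing is read from the gap between their median and the others.

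Cell type markers are given beside these values, and no association between them and the mitosis genes was tested. Over all genes, 0.971% were called higher and 1.13% lower in limma, 2.81% were called with voom and 15.6% had an unadjusted p under 0.05. The 12 T cell markers summed to 327, 375 and 882 in the sham mice and 666, 291 and 2053 in the ON-CR mice, with 11 above 0, 0 called by limma or voom and 0 with an unadjusted p under 0.05. The 12 B and plasma cell markers summed to 2419, 982 and 3239 in the sham mice and 1846, 561 and 120443 in the ON-CR mice, with mouse 6, the highest ON-CR mouse for 52 mitosis genes, far above the other mice. Of these 12 markers 9 were above 0, with 0 called by limma or voom and 0 with an unadjusted p under 0.05. The 12 microglia markers summed to 23343, 19292 and 16599 in the sham mice and 28947, 19922 and 28930 in the ON-CR mice, with 8 above 0 and 1, Aif1, called higher, 2 called with voom and 4 with an unadjusted p under 0.05. ON-CR mice 4 and 6 were almost level in this sum and mouse 5 was the lowest of the 3, while sham mouse 3 was the lowest of all. The 10 oligodendrocyte precursor markers summed to 15353 to 18900 after ON-CR against 18436 to 21550 after sham, with 4 above 0. The 1 called was Lhfpl3, which was higher, and 1 was called with voom. In 5 of the 10 (Bcan, Gpr17, Neu4, Pdgfra and Sox10) every ON-CR mouse was below every sham mouse, against 11.0% of all genes. Every ON-CR mouse was above every sham mouse in 1, Lhfpl3, against 10.5% of all genes. The 6 markers with an unadjusted p under 0.05 were the 5 lower ones and Lhfpl3. The 10 astrocyte markers summed to 292348 to 323314 against 225321 to 278398, with 6 above 0 and 1, S100b, called lower, 3 called with voom and 5 with an unadjusted p under 0.05. Without Gfap, the most abundant of them, the other 9 summed to 154990, 155733 and 126135 in the sham mice and 135883, 127011 and 120357 in the ON-CR mice, and these sums overlapped. The lowest total of any gene with deposited values was about 10 estimated reads, so no marker could be at 0 in every library. The listed neutrophil markers Elane and Ly6g and the epithelial marker Scgb1a1 had no deposited values. Sums of erythroid and neutrophil markers (137136 to 378229 after ON-CR and 269507 to 509619 after sham), respiratory and surface epithelium (1438 to 7662 and 1803 to 10775), endothelium (4261 to 4967 and 4562 to 5415) and fibroblasts and meninges (22097 to 35907 and 34624 to 41071) overlapped between the groups, with 3 of 10, 5 of 11, 2 of 10 and 1 of 10 tested markers above 0. Of these lists 1 marker, Cdh1 of the epithelium, was called lower in limma (adjusted p = 0.0498) and 0 were called with voom, and the markers with an unadjusted p under 0.05 numbered 0, 1, 1 and 5. Which cells carried the mitosis RNA, and the part of these cell types in its level, was not tested.

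Some of the values may include reads of other genes. In the GENCODE annotation, 14 of the 57 genes share exon bases with a gene on the other strand, among them Plk1, Ube2c, Prc1 and Nusap1, and 2, Top2a and Foxm1, with a gene on the same strand. Whether counting used the strand is not given in the sources used here. Ccnb1, Ccnb2, Kif22 and Kif4 have named pseudogene copies that could take or lend reads.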

How the data were processed

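RNA of optic nerves from 6 mice, 3 sham and 3 ON-CR by the sample labels, was sequenced from SMARTer Ultra Low RNA libraries. Reads were aligned and counted by the authors in DRAGEN, with mm10 gene models from Ensembl, and normalized by the median in Partek Flow 10.0. The deposited values are a normalized signal per gene and are not whole numbers. Dividing by the value of 1 read made 66.2% to 68.4% of values whole within 0.02, so these estimated reads served only for depth, filters, voom and the floor of 3 reads, which covers counting error only. A DESeq2 comparison was run by the authors, and no count model was run here.

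The test was limma (version 3.58.1, R 4.3.3) with a mean trend on log2(value + 1), adjusted by Benjamini-Hochberg over 25755 genes. It was tried on simulated data, in which genes were drawn independently with the same relative spread and only genes of higher mean value were changed. That trial did not cover changes in genes of low value or mice that differ across many genes at once. P-values measure the spread between these mice. Gene positions and exon lengths are from GENCODE for GRCm38, and promoters from RefSeq.

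The members, roles and lists were chosen with earlier results of these data known. Named genes were, per role, the 2 with the highest mean value, those with the lowest and highest fold change, Mki67, members at the floor, called list genes (up to 6 per list, or the 2 with the highest mean) and Nf1. Aurkb, Ccna2, Foxm1, Melk, Espl1, Spc24, Nuf2, Ndc80, Racgap1, Kif20a, Ncapg, Ncaph and Top2a were added after their values were seen. Alternatives were pseudocounts of 0.5 and 2, equal totals, upper-quartile and TMM scaling, filters at 10 reads, voom with sample weights, robust moderation and leaving out each mouse.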

Additional observations from a re-analysis of the deposited data

How the results depend on the processing

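The median log2 fold change of the 57 mitosis genes stayed between 0.83 and 1.26 over the alternatives tried, and 52 to 55 of the genes stayed above 0 in every fit that tested all 57. Leaving out 1 mouse in turn moved the counts most. The number of the 57 genes called was then 1 to 18 in place of 14, the lowest without ON-CR mouse 6 and the highest without ON-CR mouse 5. Over all genes it was 67 to 854 in place of 540, over the other mitosis genes 0 to 10 in place of 4, and over the DNA replication genes 0 to 2 in place of 2, and the causes were not tested. Robust variance moderation called 7 of the other mitosis genes, with 2.76% of all genes called. With at least 10 reads in every library, 47 of the 57 mitosis genes could be tested, 12 of them called, against 3.68% of the genes then tested, and 1 DNA replication gene was called, fewer genes being tested. Other scalings, pseudocounts, the filter at 10 reads in 3 libraries, voom and robust moderation called 13 to 15 of the mitosis genes, against 2.02% to 2.81% of all genes. Anln was not called with equal library totals, nor without any one sham mouse or ON-CR mouse 6. Kif18b, at a few reads per library, had a log2 fold change of 1.02 with a pseudocount of 2 in place of 1.21. Of the 57 genes, 28 were under 100 in every library, and whether depth limited their calls was not tested. The sample labels name no pairs of sham and ON-CR mice, so no paired analysis was run.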
